A study of Mus musculus with 68 samples.

Results

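Apobec3 and D730005E14Rik are neighbouring genes of mouse chromosome 15 whose transcripts were described here in mammary tumours. They were chosen by their measured values on these arrays, which lay at 2 separate levels between tumours. The members are all probe sets annotated to either gene, which are 2 of 45101 probe sets and 2 of 18194 genes that have a probe set of their own. Each gene has 1 such probe set, 1417470_at for Apobec3 and 1458362_at for D730005E14Rik, so agreement between probe sets of the same gene could not be examined. The tumours arose spontaneously in animals that carried the MMTV-PyMT transgene, in which the mouse mammary tumour virus promoter puts the middle T oncogene of polyoma virus under control active in mammary epithelial cells. All animals came from a backcross in which (NZB x PyMT) hybrids were crossed to FVB, so every array shares the transgene and the cross. The labels form 1 group, with no untreated or transgene-free samples and no ages among the labels used here. Values are reported over 56 of the 68 Affymetrix arrays, 1 array for each of 56 animals. On these the mean over 3 control probe sets for 18S ribosomal RNA was below 8, with 6.84 the highest value kept and 8.97 the lowest value of the 12 arrays left out.

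Apobec3 encodes a cytidine deaminase of the AID and APOBEC family. The enzyme is packaged into retrovirus particles and turns cytosine into uracil in viral DNA during reverse transcription, and it also slows reverse transcription without editing. In mice it limits mouse mammary tumour virus and murine leukaemia viruses, and inbred strains are known to carry alleles that differ in transcript level and splicing. D730005E14Rik is annotated as a long non-coding RNA on the opposite strand, with an annotated span that overlaps the 5′ end of the span of Apobec3. Whether either probe set lies in the overlap is not known here. No genotype was used here, so neither level was assigned to an allele.

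The promoter windows of both genes are shown because their transcripts changed side together in nearly all tumours and their annotated starts lie close to each other. Each window runs from 250 bases before to 50 bases after an annotated start, on the gene's own strand, and comes from RefSeq (build GRCm38.p6). Capitals mark matches, on either strand, to the interferon-stimulated response element (ISRE, read as GAAA, any 2 bases and GAAA), the interferon-gamma activated site TTCNNNGAA (GAS), the GC box GGGCGG, the CCAAT box CCAAT and the TATA box TATAAA.
Apobec3 window 1 at chr15:79892158-79892457 (+): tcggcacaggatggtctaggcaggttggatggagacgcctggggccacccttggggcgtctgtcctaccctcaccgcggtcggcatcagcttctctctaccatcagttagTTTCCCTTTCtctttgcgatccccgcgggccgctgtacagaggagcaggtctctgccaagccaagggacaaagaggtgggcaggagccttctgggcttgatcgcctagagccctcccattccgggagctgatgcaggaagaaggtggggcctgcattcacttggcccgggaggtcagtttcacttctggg
Apobec3 window 2 at chr15:79894773-79895072 (+): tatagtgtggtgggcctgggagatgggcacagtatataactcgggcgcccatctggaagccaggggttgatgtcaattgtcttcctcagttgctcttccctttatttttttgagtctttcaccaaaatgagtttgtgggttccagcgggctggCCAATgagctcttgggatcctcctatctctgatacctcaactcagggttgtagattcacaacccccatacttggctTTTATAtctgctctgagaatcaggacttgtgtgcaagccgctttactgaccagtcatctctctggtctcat
D730005E14Rik at chr15:79893089-79893388 (-): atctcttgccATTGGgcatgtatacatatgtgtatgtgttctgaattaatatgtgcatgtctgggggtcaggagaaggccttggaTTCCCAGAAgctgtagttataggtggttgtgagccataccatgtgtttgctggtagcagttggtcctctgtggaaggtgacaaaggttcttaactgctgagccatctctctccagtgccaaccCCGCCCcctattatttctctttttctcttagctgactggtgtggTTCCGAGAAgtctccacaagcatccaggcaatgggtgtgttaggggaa
The first Apobec3 window held 1 ISRE match, on the minus strand relative to the gene, at position -140, with the annotated start as 0. Such a match occurred in 3.44% of 32851 promoter windows of the same length. The second Apobec3 window held a CCAAT match at -97 and a TATA match on the opposite strand at -21. The D730005E14Rik window held 2 GAS matches, at -165 and 2, a GC box on the opposite strand at -42 and a CCAAT match on the opposite strand at -240. Among all windows, 8.30% held GAS, 35.7% a GC box, 37.4% CCAAT and 13.6% a TATA box. None of these matches overlaps another, and a match is a description of the letters only. These are reference sequences, and the sequence carried by each animal was not examined.

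Apobec3 lay at a low level in 34 tumours and at a high level in 22, or 39.3% high. Values are on the log2 scale as the authors normalised them. The low side ran from 8.06 over a median of 8.38 to 8.84, with a mean of 8.40 ± 0.18 (SD, n = 34). The high side ran from 8.94 over a median of 9.34 to 9.99, with a mean of 9.35 ± 0.23 (SD, n = 22). The difference of the means was 0.94, or 1.92-fold. Ashman's D, which sets the distance between the means against the pooled SD of both sides, was 4.60. The sides were separated by least squares, with the smaller side held to 20% of the arrays or more. They therefore cannot overlap, and these values are a description. Just inside the low side lay animals 4956 at 8.84 and 4950 at 8.80, and just inside the high side animals 3853 at 8.94 and 2421 at 9.06. The gap at the split, 0.0981, was narrower than the gap of 0.347 below the highest tumour, animal 4958.

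D730005E14Rik lay at a low level in 35 tumours and at a high level in 21, or 37.5% high. Its low side ran from 3.62 over a median of 4.05 to 4.84, with a mean of 4.06 ± 0.23 (SD, n = 35). Its high side ran from 5.09 over a median of 5.98 to 6.60, with a mean of 5.94 ± 0.33 (SD, n = 21). The means differed by 1.87 on the log2 scale, or 3.67-fold, and D was 6.54. Animals 3853 at 4.84 and 2703 at 5.09 lay at the edges of the split, apart from the rest. The next value below was 4.43 and the next above was 5.60, and the widest gap, 0.512, lay just above animal 2703. All low-side values of D730005E14Rik lie below 5.42, the median of all values in the table.

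**Figure D1:**
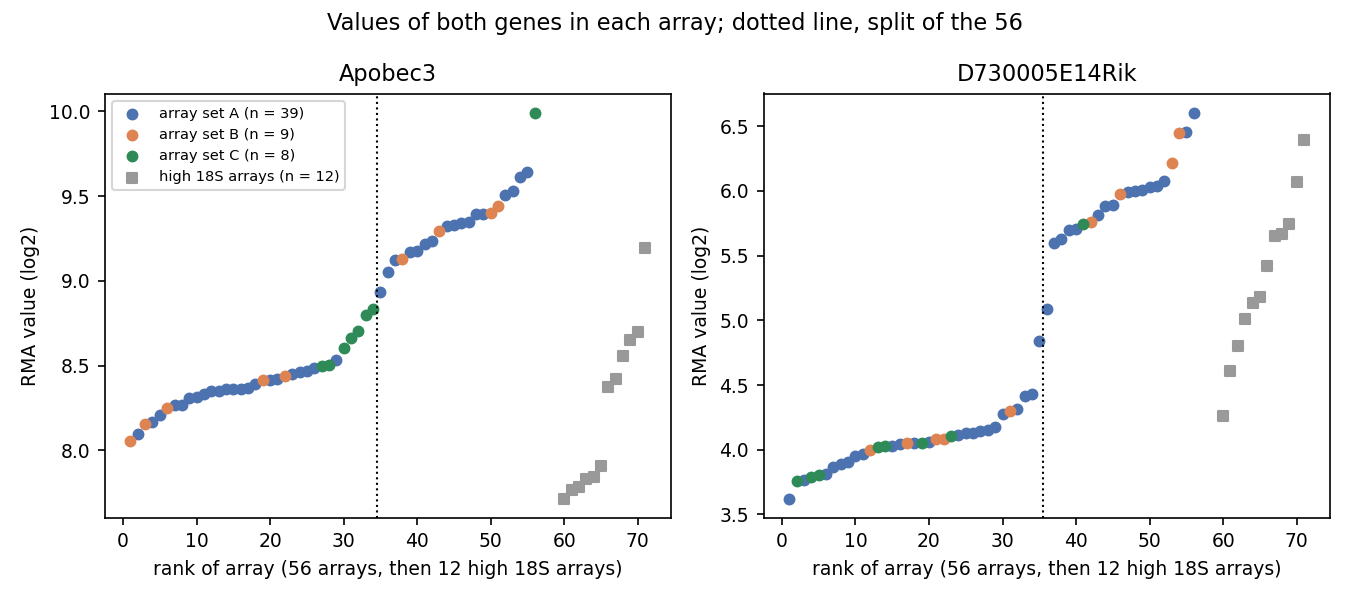
RMA values (log2) of Apobec3 (left) and D730005E14Rik (right) in each array, ranked, with colours for the array sets and grey squares for the 12 arrays with high 18S values, ranked apart. The dotted line marks the split of the 56 arrays, with 34 below and 22 above for Apobec3 and 35 below and 21 above for D730005E14Rik.

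The same tumours were high for both genes. Of 56 tumours, 55 (98.2%) lay on the same side for both, 21 high and 34 low. The exception was animal 3853, the lowest of the high side for Apobec3 and the highest of the low side for D730005E14Rik. Animal 2703 was high for both, with 9.12 for Apobec3 and with D730005E14Rik at 5.09, below every other high tumour. Animal 4958 had the highest Apobec3 value, 9.99, with an ordinary high-side value of 5.74 for D730005E14Rik. Since the pair was chosen for this agreement, no test is given.

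Within the sides the values of the pair were set against each other apart. Only tumours on the same side for both genes entered, so animal 3853 was left out. In the largest array set, described next, the high side gave Pearson's r of 0.653 and Spearman's rho of 0.621 (n = 16), and r of 0.617 without the 2 tumours farthest from the Apobec3 median. The low side gave r of -0.279 and rho of -0.300 (n = 22), and r of -0.0849 without the 2 farthest. Points share the array and its normalisation, and no p-value is given. Over all array sets, r was 0.346 on the high side (n = 21) and -0.407 on the low side (n = 34).

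**Figure D2:**
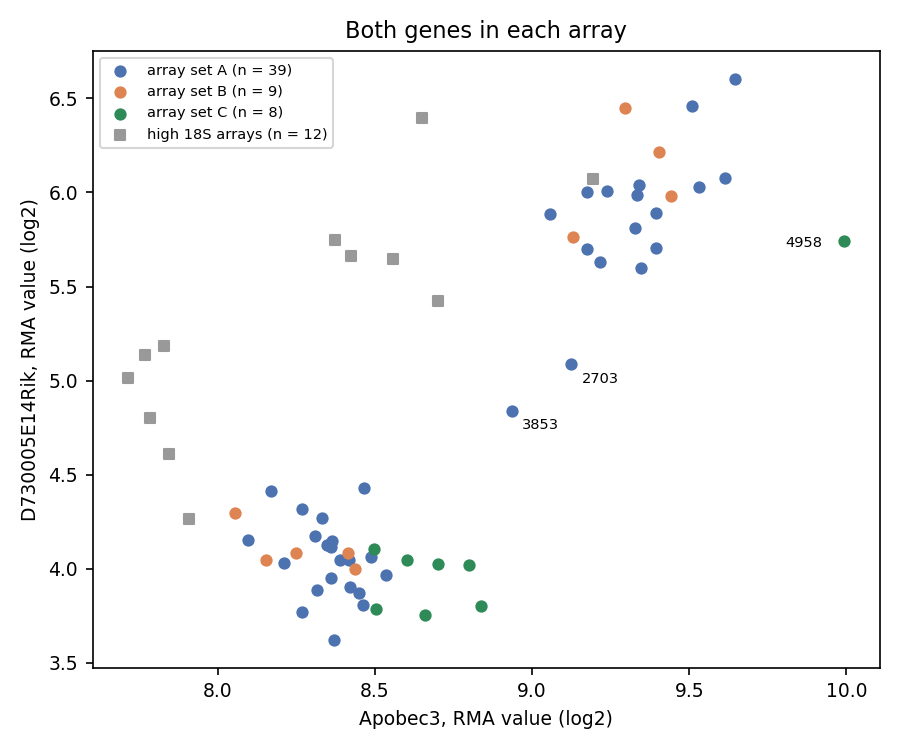
D730005E14Rik against Apobec3, both as RMA values (log2), 1 point an array, coloured by array set with squares for the 12 arrays with high 18S values. Circles form a low and a high cluster, with animals 3853 and 2703 between them and animal 4958 alone at the right.

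The arrays fall into unlabelled sets, found as splits shared exactly by many probe sets on many chromosomes. Set A holds 39 of the 56 arrays, set B 9 (8 of them with an unexplained suffix R in the title) and set C 8, all with animal numbers above 4000. Apobec3 was high in 17 of 39 arrays of set A, in 4 of 9 of set B and in 1 of 8 of set C. The low-side medians were 8.36 in set A, 8.25 in set B and 8.66 in set C. The 7 low arrays of set C ran from 8.50 to 8.84, from within the low range of set A (up to 8.53) to above it, and its high array, animal 4958, lay above the high side of set A (up to 9.65). In set A alone the sides were 22 and 17 arrays, the gap at the split was 0.4015 and D was 6.17. With each set centred on its median, the sides kept 34 and 22 arrays, with a gap of 0.313 and a D of 5.81. RNA quality measures overlapped between sides. The Gapdh 3′ minus 5′ difference was -0.0343 ± 0.122 (SD, n = 34) on the low side and -0.0626 ± 0.152 (n = 22) on the high side, and that of Actb was 0.851 ± 0.201 and 0.930 ± 0.217.

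The 12 arrays left out for their high 18S values entered no split above. Split on their own, Apobec3 took values from 7.72 to 7.91 in 6 arrays and from 8.37 to 9.19 in the other 6. D730005E14Rik ran from 4.26 to 5.18 in the former and from 5.42 to 6.39 in the latter, so the 6 arrays highest for one gene were the 6 highest for the other. The Apobec3 levels of these arrays lay lower than in the 56. For 2 animals an array of each kind exists. Animal 3296 had Apobec3 at 8.42 among the 56 and at 7.72 on its array with the suffix R, and D730005E14Rik at 4.05 and 5.01. Animal 3351 had 9.24 and 8.42 for Apobec3, and 6.01 and 5.66 for D730005E14Rik. Splitting all 68 arrays at once gave 44 low and 24 high for Apobec3, with 55 of the 56 arrays on the same side as before, and 38 low and 30 high for D730005E14Rik. By these splits 1 of the 12 left-out arrays was high for Apobec3 and 9 were high for D730005E14Rik. The second array of animal 3296 then changed to the high side for D730005E14Rik, and that of animal 3351 to the low side for Apobec3. Levels of the 12 arrays were therefore not comparable with those of the 56 on a common split.

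The labels allow 1 further division, animal numbers above 4000 (15 arrays) against those below (41 arrays). Apobec3 averaged 8.80 ± 0.49 (SD, n = 15) in the upper and 8.76 ± 0.52 (n = 41) in the lower range, and the limma fit with array set as covariate gave a difference of 0.03 (SE 0.21, adjusted p = 0.980). D730005E14Rik averaged 4.46 ± 0.91 and 4.88 ± 0.96, with a fitted difference of -0.13 (SE 0.39, adjusted p = 0.959). Neither difference exceeded the spread between tumours. In this fit limma called 0 of 12562 genes (0.0%), with 868 at an unadjusted p under 0.05. Array sets and number ranges are partly confounded, since all of set C has upper numbers.

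Genes that followed the Apobec3 level lay on chromosome 15. Every gene was fitted on the Apobec3 value with array set as covariate (limma, Benjamini-Hochberg adjustment), and a gene is called here if its adjusted p was below 0.05. A slope is the change of a gene, on the log2 scale, per unit of Apobec3 on the log2 scale. The fit called 9 of 12561 genes (0.0717%), 8 with a positive slope (0.0637%) and 1 with a negative slope (0.00796%). All 9 lie on chromosome 15, where 511 genes were tested (1.76% called). Of 12050 other genes limma called 0, with 449 at an unadjusted p under 0.05. The first gene from another chromosome, D130051D11Rik, ranked at place 18 with an adjusted p of 0.216. D730005E14Rik led the list with a slope of 1.72 (SE 0.08), which belongs to the choice of the pair. In bulk tumour RNA, fewer cells of a type and less RNA per cell cannot be told apart.

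Cbx6 and Cbx7 are the tested genes next to the pair, Cbx6 on the D730005E14Rik side at 0.07 Mb and Cbx7 beyond Apobec3 at 0.02 Mb. Both encode chromobox proteins, subunits of Polycomb repressive complexes that bind methylated histone H3. Cbx6 ran from 8.01 over a median of 8.45 to 8.76 in tumours with low Apobec3. In tumours with high Apobec3 it ran from 8.72 over 9.14 to 9.54. Those ranges overlap only at their edges, and split on its own values Cbx6 put 53 of 56 tumours on the same side as Apobec3. The other 3 were animals 2421, 2703 and 4958. Its slope was 0.65 (SE 0.05, adjusted p = 1.65e-14 with limma), and its second probe set gave 0.72. Cbx7 averaged 5.82 ± 0.27 (SD, n = 34) with low and 6.18 ± 0.21 (n = 22) with high Apobec3, and the ranges overlapped widely. Its slope was 0.41 (SE 0.05, adjusted p = 1.79e-08), and 3 of 3 probe sets had a positive slope. Arrays of set C lie high for Cbx7 on the low side, and within set A its slope was 0.44.

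No other near neighbour was called. Of the 5 tested genes nearest on each side, limma called Cbx6 and Cbx7 only. The remaining 8 were Tomm22, Gtpbp1, Sun2 and Dnal4 on one side and Pdgfb, Syngr1, Tab1 and Mief1 on the other. Their slopes ran from -0.06 for Sun2 to 0.09 for Pdgfb, and none was called. Pdgfb, a growth factor subunit, averaged 6.85 ± 0.34 with low and 6.85 ± 0.39 with high Apobec3. Tomm22, a receptor of the mitochondrial import complex, averaged 9.17 ± 0.31 and 9.12 ± 0.22.

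Further along the chromosome, Ttll1, which encodes a tubulin polyglutamylase, had a slope of 0.51 (SE 0.05, limma adjusted p = 1.05e-09). It lies 3.59 Mb beyond Apobec3. It averaged 6.72 ± 0.21 (SD, n = 34) with low and 7.25 ± 0.20 (n = 22) with high Apobec3, and 51 of 56 tumours were on the same side. The 5 others were animals 2421, 2703, 3353, 3739 and 4977. Animals 2421 and 2703 therefore carried high Apobec3 with low-side values of both Cbx6 and Ttll1.

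Deptor, an inhibitor that binds mTOR, lies 24.78 Mb before Apobec3 and rose with it, with a slope of 0.62 (SE 0.11, limma adjusted p = 0.000448). It averaged 8.50 ± 0.37 (SD, n = 34) with low and 9.23 ± 0.45 (n = 22) with high Apobec3. Its 6 probe sets had positive slopes, from 0.0037 to 0.67. The lowest slope, with an SE of 0.03, came from a dim probe set with a mean of 2.69 and shows no relation. Fbxl6, which encodes an F-box protein, was the only called gene that fell, at 7.60 ± 0.24 with low and 7.14 ± 0.27 with high Apobec3. Its slope was -0.34 (SE 0.06, adjusted p = 0.000196), with 48 of 56 tumours on the opposite side. Mfsd3, a gene of the major facilitator transporter superfamily, had a slope of 0.26 (SE 0.04, adjusted p = 0.000237). Ano6, a phospholipid scramblase, had a slope of 0.29 (SE 0.06, adjusted p = 0.00712). Dennd3, a guanine nucleotide exchange factor for a Rab protein, had a slope of 0.15 (SE 0.03, adjusted p = 0.0387). In set A alone the fit called 6 genes, and Fbxl6 (adjusted p = 0.167), Deptor (0.0594), Mfsd3 (0.0594) and Dennd3 (0.131) were not called, with slopes of unchanged sign. When each of the 56 arrays was left out in turn, Dennd3 lost its call in 23 of 56 fits and the other 8 genes in none.

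**Figure D3:**
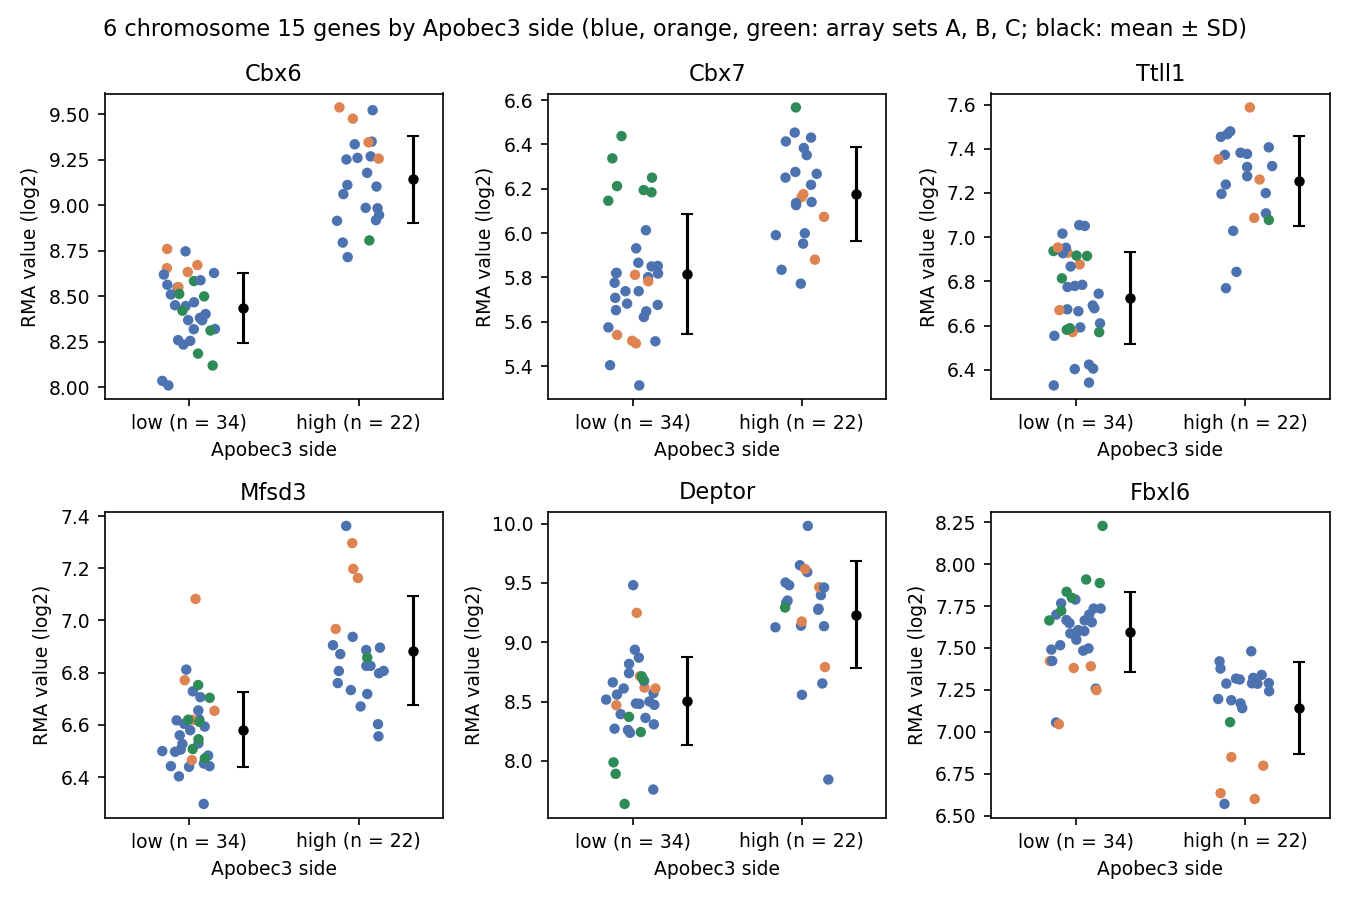
RMA values (log2) of 6 called genes of chromosome 15 in tumours with low (n = 34) and high (n = 22) Apobec3, 1 point an array, coloured by array set, with black points and bars for mean ± SD. Cbx6 has nearly separate ranges, Fbxl6 is lower with high Apobec3, and set C (green) lies high for Cbx7 among low tumours.

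By distance, 3 of 74 genes within 2 Mb of the Apobec3 start were called, 3 of 93 between 2 and 5 Mb, and 1 of 54 between 5 and 10 Mb. The nearest bin counts D730005E14Rik, whose call belongs to the choice of the pair, beside Cbx6 and Cbx7. Between 10 and 20 Mb it was 1 of 81, and beyond 20 Mb 1 of 209. At an unadjusted p under 0.05 the same bins held 16 (21.6%), 18 (19.4%), 13 (24.1%), 5 (6.17%) and 13 genes (6.22%), against 4.09% of all genes. These shares were higher within 10 Mb than beyond, but most genes near the pair were not called.

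**Figure D4:**
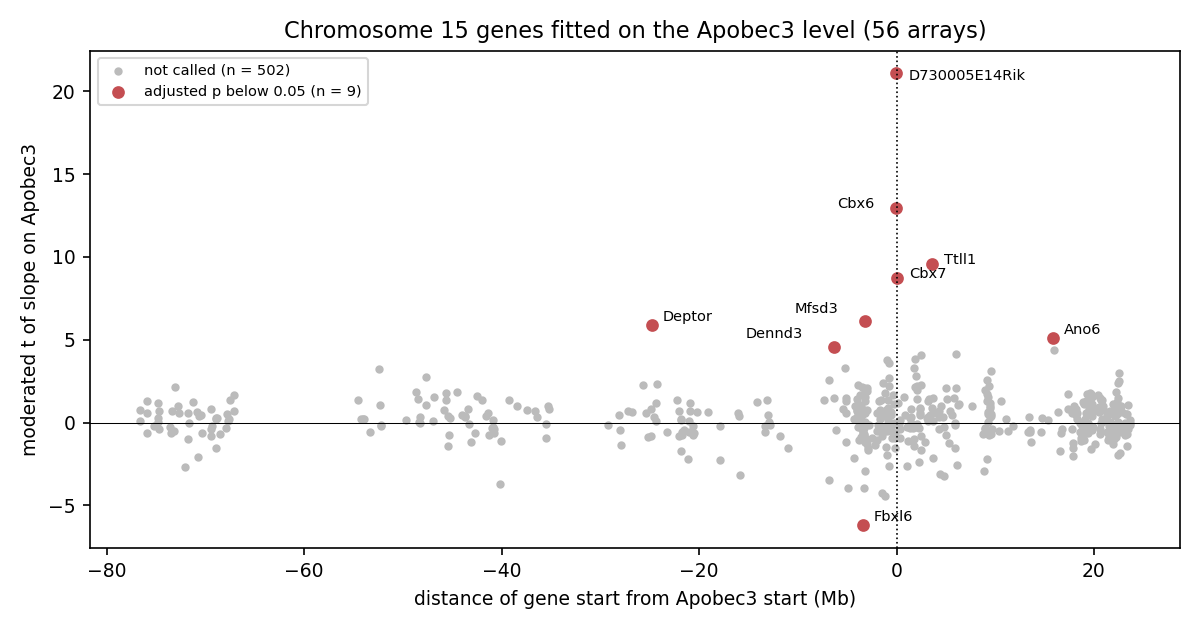
Moderated t of each tested chromosome 15 gene in the fit on Apobec3 (vertical axis, no unit) against the distance of its annotated start from that of Apobec3 in Mb (horizontal axis). Red points are the 9 called genes and grey points the 502 others, with Cbx6, Cbx7 and D730005E14Rik at the dotted line.

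The fit on the D730005E14Rik value, over the same arrays, called 12 of 12561 genes (0.0955%), 7 with a positive (0.0557%) and 5 with a negative slope (0.0398%), all 12 on chromosome 15. Of the 12050 genes elsewhere limma called 0, with 319 at an unadjusted p under 0.05. Apobec3 was among the 12, at a slope of 0.52 that belongs to the choice of the pair. Cbx6 (0.35), Ttll1 (0.26), Cbx7 (0.22), Deptor (0.33), Mfsd3 (0.14) and Fbxl6 (-0.21) were called here as well. Ano6 (adjusted p = 0.0562 with limma) and Dennd3 (adjusted p = 0.0967) were not. These slopes are per unit of D730005E14Rik, which spans a wider range than Apobec3, so their sizes are not comparable between fits. The pair shares all arrays, so both fits are not independent.

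The fit on D730005E14Rik also called 5 genes that the fit on Apobec3 did not, named here after their values were seen. Mfng, a glycosyltransferase that modifies Notch receptors, fell with a slope of -0.21 (SE 0.04, limma adjusted p = 0.00208), against an adjusted p of 0.0564 in the fit on Apobec3. It averaged 6.44 ± 0.30 (SD, n = 34) with low and 5.99 ± 0.20 (n = 22) with high Apobec3. Tst, a thiosulfate sulfurtransferase, fell with a slope of -0.21 (SE 0.04, adjusted p = 0.00472). Gm17546 rose with a slope of 0.23 (SE 0.05, adjusted p = 0.00548). It averaged 4.93 ± 0.34 (SD, n = 34) with low and 5.37 ± 0.29 (n = 22) with high Apobec3. Both means lay below 5.42, the median of all values that served as the filter on dim genes. Its highest values were 5.66 with low and 5.85 with high Apobec3, so this call rests on a dim gene. Adck5, a gene of the ADCK kinase family, fell with a slope of -0.18 (SE 0.04, adjusted p = 0.0281). Ly6e, an interferon-induced surface protein anchored in the membrane by a lipid, fell with a slope of -0.19 (SE 0.04, adjusted p = 0.0158). With lower animal numbers alone, 7 of these 12 genes were called. The difference between both fits was not tested for any gene.

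No other member of the family was called. Apobec1, the editor of apolipoprotein B mRNA, averaged 7.15 ± 0.27 (SD, n = 34) with low and 7.16 ± 0.26 (n = 22) with high Apobec3, with a slope of 0.05 (SE 0.07), not called by limma. Apobec2, known from muscle, averaged 6.59 ± 1.34 and 7.02 ± 0.85 and was not called either (slope 0.33, SE 0.31). Apobec4 stayed at 3.46 ± 0.17 and 3.48 ± 0.15, below the filter on dim genes, and was not tested. A second list holds 11 tested genes that an earlier description of these data gave as having separate levels. Limma called 0 of these 11 in the fit on Apobec3, and 26 to 39 of 56 tumours were on the same side. The highest number, 39, belonged to Amhr2, the only one on chromosome 15, with a slope of 0.46 (SE 0.15, adjusted p = 0.900). For the others the number on the same side was 26 for BC018473, 26 for H2-Eb1, 27 for D17H6S56E-5, 32 for Rbm45, 28 for Aqr, 28 for Mir1931, 35 for Zfp979, 31 for Ifi202b, 28 for AI506816 and 30 for Tnfsf13os.

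Beside the AID and APOBEC list and the list of separate-level genes, 20 lists were counted, covering deaminases, DNA repair, retrovirus defence and entry, interferon response, nucleic acid sensing, cell types and mitosis. In the fit on Apobec3 limma called 0 of the 217 tested genes of these 20 lists, with 10 at an unadjusted p under 0.05. Of all genes, 0.0717% were called and 4.09% had an unadjusted p under 0.05. Of the luminal keratins, Krt8 averaged 12.43 and Krt18 12.40 over the 56 arrays. All arrays share the tissue label, so no other tissue was there to set these values against. The mean level of the macrophage list ran from 8.56 to 10.23 on the low and from 8.11 to 9.89 on the high side, and that of the T and NK cell list from 5.15 to 6.52 and from 4.86 to 6.07. The skeletal muscle list varied most, from 3.89 to 12.07 on the low and from 4.65 to 11.94 on the high side. Of its 12 tested genes 12 had a slope above 0 (median 0.60), none called, and its part in other results was not tested. The mitosis list leaned the other way. Of its 14 tested genes 0 had a slope above 0 (median -0.15), with 6 at an unadjusted p under 0.05 (limma) and none called.

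Within a side, smaller differences of Apobec3 went with many genes. A further fit took the side as a covariate beside array set, so that the slope rests on variation within sides, whose SD in set A was 0.11 (low) and 0.19 (high). Limma called 2212 of 12561 genes (17.6%), 1144 rising (9.11%) and 1068 falling (8.50%). The median slope of all genes was 0.03. With those 3′ minus 5′ differences of Gapdh and Actb as further covariates, 1269 genes were called, 670 rising and 599 falling. In set A alone 798 of 12561 genes rose and 781 fell. Member counts in the lists below are read against the share of all genes in the same fit.

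The 10 genes with the smallest p within sides were Zfp688, Cdc7, Fabp5, Hsd17b7, Lnpk, Rif1, Mgat1, Cenpe, Wdr75 and Pola1. Cdc7, a kinase that starts DNA replication, had a slope of -1.29 (SE 0.20, limma adjusted p = 0.000157). Pola1, the catalytic subunit of DNA polymerase alpha, had -1.21 (SE 0.20), Rif1, a regulator of replication timing, -0.86 (SE 0.14), and Cenpe, a kinetochore motor, -1.52 (SE 0.25). Fabp5, a fatty acid binding protein, had -1.58 (SE 0.25), and Hsd17b7, an enzyme of cholesterol synthesis, -1.27 (SE 0.20). Lnpk, which shapes the endoplasmic reticulum, had -0.94 (SE 0.15) and Wdr75, a factor of ribosome biogenesis, -0.92 (SE 0.15). Only Zfp688 (0.63, SE 0.10) and Mgat1 (0.61, SE 0.10), an N-glycan transferase, rose. For each of these 10 the slope had the same sign on the low side and on the high side fitted apart. That of Cdc7 was -0.59 (SE 0.26) on the low and -1.71 (SE 0.32) on the high side, and that of Cenpe -0.44 (SE 0.37) and -2.22 (SE 0.32). All 10 were called in set A alone as well and with the RNA quality covariates. Set A and both sides are parts of the arrays by which these genes were picked. These signs and calls are therefore not independent of the choice.

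Genes of the interferon response rose with Apobec3 within sides, 12 of 19 tested and none falling, with a median slope of 1.48. Irf7, a transcription factor that amplifies the response, had a slope of 2.99 (SE 0.65, limma adjusted p = 0.00166). Stat2 and Irf9, which form the factor that binds the ISRE, had 1.48 (SE 0.34) and 1.24 (SE 0.29), and Dhx58, an RNA helicase of the RIG-I family, had 1.94 (SE 0.46). The count was 4 of 19 in set A alone, 7 without animal 3289, 9 without animal 3853, 10 without animal 4958 and 10 with the RNA quality covariates. Between sides, the mean level of the list ran over nearly the same range, 7.33 to 9.31 with low and 7.16 to 9.46 with high Apobec3.

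Among 18 other retrovirus restriction factors, 7 rose and none fell, with a median slope of 0.55. Mov10, an RNA helicase, had 0.91 (SE 0.20, limma adjusted p = 0.00150), Serinc3, a membrane protein taken up by virus particles, 0.43 (SE 0.12), Ifitm2 0.56 (SE 0.16) and Shfl, a blocker of ribosomal frameshifting, 0.55 (SE 0.18). In set A alone 1 of 18 was called, near the share of all genes there. The count was 3 without animal 3289 and 4 without animal 3853. Among 13 nucleic acid sensing genes 6 rose, with Myd88 at 0.39 and Irf3 at 0.46, and 1 fell, the DNA sensor Cgas at -0.48. In set A alone 1 rose and 1 fell, each near the share of all genes there. Without animal 3853 the count of rising genes was 3, as with the RNA quality covariates. Of 5 retrovirus receptors 3 fell. These were Slc7a1, the receptor of ecotropic murine leukaemia virus (-1.27, SE 0.25, adjusted p = 0.000828), Tfrc, the receptor of mouse mammary tumour virus (-1.21, SE 0.32), and Slc20a1 (-0.89, SE 0.24), with 2 of the 3 called in set A. Ly6e, which fell with the level of D730005E14Rik, rose with Apobec3 within sides, with a slope of 1.02 (adjusted p = 0.000163).

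Mitosis genes fell within sides, 12 of 14 tested, with a median slope of -0.82. Bub1, a spindle checkpoint kinase, had -1.35 (SE 0.30, limma adjusted p = 0.00177), Kif11, a spindle motor, -1.32 (SE 0.31), Cdc20, an activator of the anaphase-promoting complex, -0.92 (SE 0.21), and Cdk1, the mitotic kinase, -0.89 (SE 0.22). The count was 7 in set A alone, 5 without animal 3289, 5 without animal 4958, 7 without animal 3572 and 12 with the RNA quality covariates. Of 16 genes of uracil and base excision repair, which acts on the uracil that deaminases leave in DNA, 3 fell. These were Fen1 (-0.69, SE 0.14), Neil3 (-0.73, SE 0.19) and Apex1 (-0.61, SE 0.16), all 3 also called in set A.

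Luminal and macrophage markers also moved within sides. Of 13 luminal genes 6 rose, with Krt18 at 0.55 (SE 0.12, limma adjusted p = 0.00174), Krt8 at 0.58 (SE 0.13), Epcam at 0.77 (SE 0.18) and Cldn3 at 0.50 (SE 0.14), and 5 of the 13 were called in set A. Of 14 macrophage genes 5 rose, among them the complement genes C1qa at 1.47 (SE 0.32), C1qc at 1.37 (SE 0.31) and C1qb at 1.32 (SE 0.33) and the receptor gene Cd14 at 1.08 (SE 0.32). In set A alone 1 of the 14 was called, near the share of all genes there, and 9 without animal 3572. Other lists had 1 or 2 rising members, against 9.11% of all genes. These were Mmp2 and Col1a1 of 15 fibroblast and matrix genes, Gzmb of 10 T and NK cell genes, Itgax of 7 dendritic cell genes and Adar of 4 RNA adenosine deaminases. The fibroblast count was 0 in set A, without animal 3853, without animal 4958 and with the RNA quality covariates, and ran from 0 to 5 as each array was left out. That of T and NK cells ran from 0 to 4, with 0 without animal 3853 or animal 4958. The dendritic and RNA deaminase counts were 0 in set A and without animal 3853. Apobec1 rose with 0.65 (SE 0.23, adjusted p = 0.0402), a call lost when any of 12 single arrays was left out. Of 11 skin genes 1 fell, Krt6b at -4.93 (SE 1.41), near the 8.50% of all genes that fell. The count was 3 in set A alone, 6 with the RNA quality covariates and 0 without the array set covariate. Leaving out single arrays gave 1 to 4, with 4 without animal 3853, 3890R or 4955. Limma called 0 of 62 tested genes in the B and plasma cell, neutrophil, basal, endothelial, adipocyte, muscle and nucleoside deaminase lists. Of these 62, 9 had an unadjusted p under 0.05, a smaller share than the 4040 of 12561 among all genes. The part of cell type content in the within-side slopes was not tested.

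**Figure D5:**
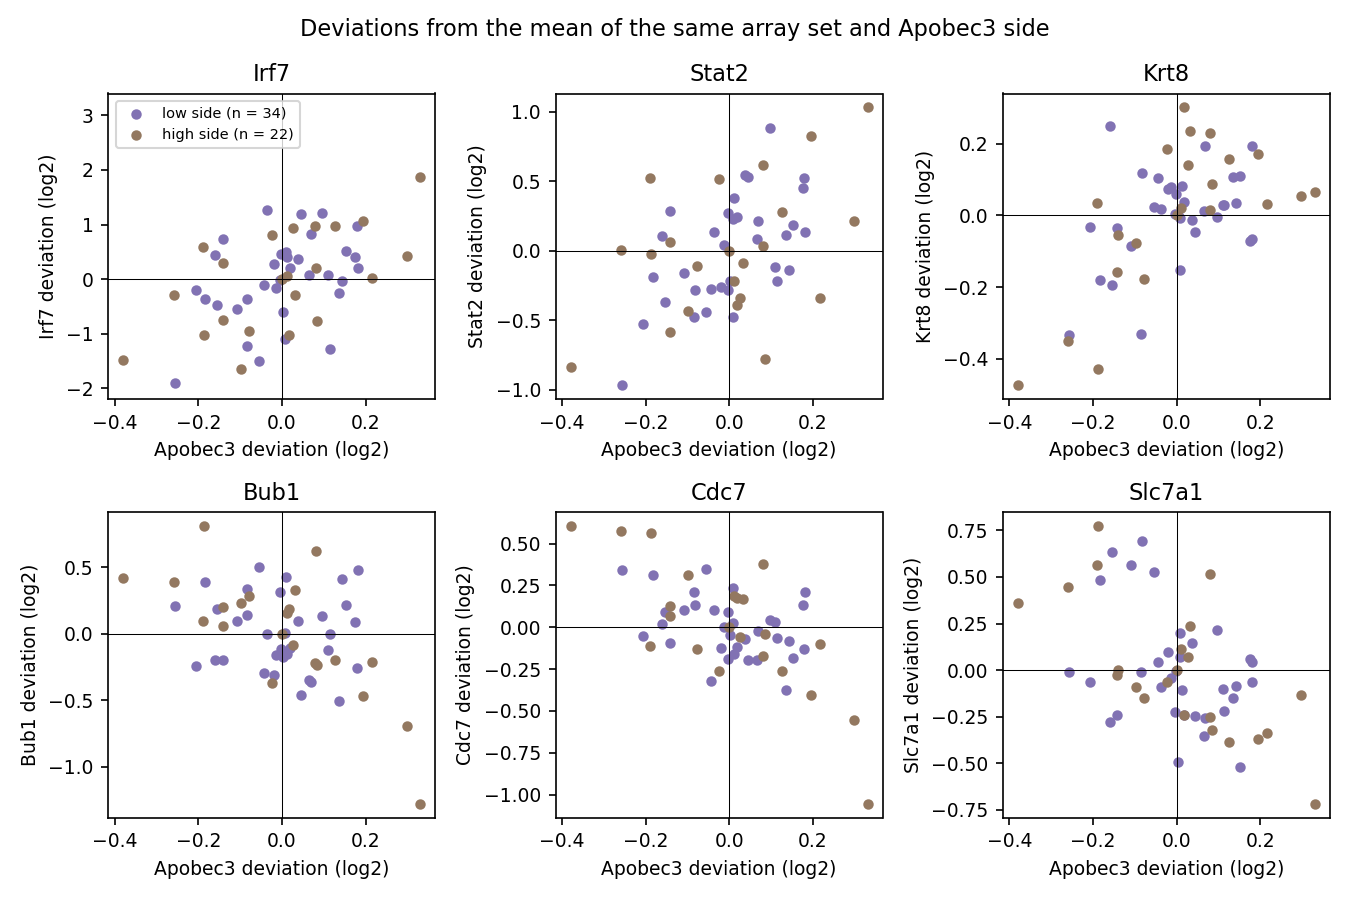
Deviation of 6 genes (vertical axis, log2) against that of Apobec3 (horizontal axis, log2), each from the mean of the arrays of the same set and Apobec3 side, 1 point an array (low side n = 34, high side n = 22). Irf7, Stat2 and Krt8 rise to the right, and Bub1, Cdc7 and Slc7a1 fall. Animal 4958, the only high array of set C, lies at the origin of every panel by construction. It did enter the fitted slopes, where set and side were separate covariates, so the panels do not show that fit exactly.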

How the data were processed

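Tumour RNA was hybridised to 68 Affymetrix arrays. The authors deposited RMA values, per the submitters' processing notes, which were taken as log2 because they ran from 1.68 to 14.57. Version and log base are not given in the sources used here. Genes were named through the array's platform annotation, where 34958 probe sets have 1 gene, 932 have several and the others are unnamed here. For each gene the probe set of highest mean was used. Genes whose 95th percentile exceeded the median of all values (5.42) were tested. The members and lists were chosen with earlier results of these data known.

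Slopes were fitted with limma 3.58.1 (lmFit and eBayes, R 4.3.3) on 56 arrays with array set as covariate. P-values were Benjamini-Hochberg adjusted over all genes tested, with a threshold of 0.05. Only the fit on Apobec3 was checked on simulated data, with noise drawn independently for each gene. The within-side fit and the other fits were not simulated. An array set is a split of the arrays that 20 or more probe sets on 10 or more chromosomes shared exactly. Named genes are the members, up to 15 called genes each way in the fit on Apobec3, 5 tested neighbours a side, the family and separate-level lists, up to 4 genes of every other list and 10 genes by p within sides. The number of arrays limits the precision. The labels do not tie the arrays to replicates beyond the animal number.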

Additional observations from a re-analysis of the deposited data

How the results depend on the processing

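The means of both sides of Apobec3 differed by 0.944 to 0.992 and those of D730005E14Rik by 1.73 to 1.87 over 4 alternatives. The number of genes following Apobec3 stayed within 1.5 times of 9 under 10 of 13 alternatives and was 16 with all 68 arrays. Set B alone (9 arrays) gave 0, with 241 genes at an unadjusted p under 0.05 (limma). Set C alone (8 arrays) also lay outside 1.5 times. Its slopes rest largely on animal 4958, its only array with high Apobec3. For D730005E14Rik the number was 12 and became 0 in set B (162 genes at an unadjusted p under 0.05) and 7 with lower animal numbers alone. Set C alone also lay outside 1.5 times, and there again only animal 4958 was high. Within sides the number was 2212, against 4518 without the array set covariate, 1213 with all 68 arrays, 1269 with the RNA quality covariates and 0 in set B alone (722 genes at an unadjusted p under 0.05). Of the 2212, 1345 were also called in set A alone and 1567 without the array set covariate, where 3 more had the opposite sign. The number range gave 0 genes, and 2730 without the array set covariate, where the members had adjusted p of 0.873 and 0.296. Fewer arrays enter sets B and C; the cause of the other changes was not tested. With each array left out in turn, 7 to 10 genes rose and 1 to 3 fell with Apobec3, and 797 to 1289 rose and 726 to 1528 fell within sides. Set B alone, set C alone, lower numbers alone, leaving out single animals and RNA quality covariates were chosen after seeing the data. Depth does not apply to arrays, and signal over background was not used here. No paired comparison of conditions was possible because the labels form 1 group. The 68 arrays come from 66 animals. Fits over all 68 arrays treated both arrays of animals 3296 and 3351 as independent.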
